A study of Mus musculus with 10 samples.

Results

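The 30 genes described here encode subunits of the Polycomb chromatin complexes, and they were taken by symbol from the 52097 genes of the deposited table: 9 genes of Polycomb repressive complex 2 (PRC2), 18 of Polycomb repressive complex 1 (PRC1) and 3 of the Polycomb deubiquitinase (PR-DUB). RNA was sequenced from mouse bone marrow sorted for haematopoietic stem cells as Lin-Sca-1+c-Kit+CD48-CD150+, about 5000 cells a sample, after amplification with the Smart-Seq V4 kit for small inputs. There were 5 control samples, titled Dhx16_fl with the genotype label WT, and 5 knockout samples, titled Dhx16_CKO with the genotype label KO. Dhx16 is a DEAH-box RNA helicase that acts in pre-mRNA splicing. The titles read as a floxed gene and its conditional deletion, but the Cre driver, the time after deletion, the strain, the age, and whether each sample was a separate animal are not given in the labels. Every p-value therefore measures only the spread between these samples.

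PRC2 places methyl groups on lysine 27 of histone H3. Its catalytic subunit is Ezh2 or the closely related Ezh1, and Eed and Suz12 are needed for activity, while Jarid2, Aebp2 and the Polycomb-like proteins Mtf2, Phf1 and Phf19 guide the complex to its sites. PRC1 places ubiquitin on histone H2A through Ring1 or Rnf2 (RING1B), each paired with 1 of 6 PCGF proteins. Canonical PRC1 holds a CBX protein, which reads methylated H3, and a PHC protein, while variant PRC1 holds Rybp or Yaf2 in their place. PR-DUB, made of Bap1 and an ASXL protein, removes ubiquitin from H2A. In haematopoietic stem cells Bmi1 (PCGF4) and Cbx7 are known for their part in self-renewal, Ezh1 is the form of the methyltransferase associated with resting cells, and Ezh2 the form associated with dividing cells.

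Levels are given in FPKM, fragments scaled to the length of the transcript and the size of the library, a unit inferred from the deposited values. The length scaling is meant to make levels comparable between genes, but some genes ranked otherwise by the authors' mean normalized counts, as given below. Comparisons between libraries depend on the scaling of the libraries, which is also taken up below. The library columns were called WT2 to WT6 and CKO7, CKO8, CKO9, CKO12 and CKO13. Changes are knockout minus control on the log2(FPKM + 1) scale, where the added 1 understates the change of low genes. They were tested with limma over all genes at 10 FPKM or more in at least 5 libraries (6913 genes) or at 1 FPKM or more in at least 5 libraries (13448 genes), and a gene was called at a Benjamini-Hochberg adjusted p under 0.05. All 30 Polycomb genes passed the filter of 1 FPKM and 16 passed that of 10 FPKM. Of those 16, Ezh1, Cbx7 and Phc3 passed only through the control libraries, so the counts below lead with the filter of 1 FPKM. Values of a single gene come from the fit at 10 FPKM unless the fit at 1 FPKM is named, as it is for these 3.

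Dhx16 itself lay between 14.33 and 22.63 FPKM in the control libraries and between 7.1 and 10.88 FPKM in the knockout libraries (log2 change -0.81, SE 0.16, adjusted p = 0.000638), so its RNA was lower but present in every library labelled knockout. A list of stem cell markers and other genes of early blood cells had 15 genes tested at 10 FPKM. Of these, 12 were lower (4 of them under all 5 library scalings described below) and 0 higher. Of all genes at that filter, 31.6% were lower and 21.1% higher. At 1 FPKM 13 of 17 listed genes were lower and 0 higher, where 36.4% of all genes were lower and 13.4% higher. The list was broader than the planned stem cell markers, as it also held Cd34, Ptprc (CD45), Itga2b and Cd48, the last below the filter of 10 FPKM. Itga2b is counted again among the megakaryocyte markers, and Hoxa9 among the Polycomb targets below. The sort marker Slamf1 (CD150) was among the lower ones, at 16.39 to 26.52 FPKM in control and 9.4 to 14.71 FPKM in knockout libraries (log2 change -0.92, adjusted p = 0.000277). The other positive sort markers, Kit and Ly6a (Sca-1), were not called. At 1 FPKM 29 of 32 genes of DNA replication and mitosis were higher, where 13.4% of all genes were, and 3 were not called. All 28 tested at 10 FPKM were higher, 27 of them under all 5 scalings, where 21.1% of all genes were higher. Some of the 28, such as Ccne2, reached 10 FPKM in every knockout library but not in every control library. Nothing is therefore read from that count. The 32 genes of that list summed to 1092 to 1670 FPKM in control and 3075 to 3836 FPKM in knockout libraries. Erythroid markers were higher in 8 of 8 (120 to 397 against 753 to 1177 FPKM), where 13.4% of all genes at 1 FPKM were higher. Megakaryocyte markers were lower in 8 of 8 (1528 to 2312 against 718 to 1412 FPKM), where 36.4% of all genes at 1 FPKM were lower. The 6 listed macrophage markers summed to 117 to 272 FPKM in control and 10.6 to 27.5 FPKM in knockout libraries. The 3 of them tested at 10 FPKM were all lower. They may have passed that filter only through the control libraries, so nothing is read from this count. Granulocyte markers (9623 to 74170 against 8348 to 40842 FPKM) and bone matrix markers (3180 to 65870 against 4549 to 47778 FPKM) were called in 0 of 6 each (limma, with 1 and 0 at an unadjusted p under 0.05), and none of the lists was at 0. In bulk samples fewer cells of a type and less RNA per cell cannot be told apart, and the part of these other genes in the Polycomb results was not tested.

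Among the 30 Polycomb genes, 14 fell and 2 rose at the filter of 1 FPKM, against 36.4% of all 13448 genes lower and 13.4% higher. Their median log2 change was -0.36, and that of all tested genes was -0.26. The balance was unequal between the complexes. In PRC1, 11 of 18 genes fell and 1 rose, with a median of -0.47. In PRC2, 3 of 9 fell and 1 rose, with a median of 0.07, and in PR-DUB 0 of 3 were called (median -0.14, with 2 at an unadjusted p under 0.05). The genes that fell were Phf1, Ezh1 and Jarid2 of PRC2 and Cbx7, Phc3, Phc2, Ring1, Pcgf5, Scmh1, Pcgf3, Rnf2, Phc1, Cbx6 and Yaf2 of PRC1. Eed and Pcgf2 rose. At the filter of 10 FPKM, 9 of the 16 tested members fell and 1 rose, where 31.6% and 21.1% of all 6913 genes did. Since 3 of the 9 entered that fit only through the control libraries, nothing is read from this count.

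A shift common to most genes bears on these counts. The deposited FPKM columns were used as they stand, and under other scalings of the libraries the median of all genes at 1 FPKM moved from -0.26 to -0.38 (equal totals), 0.15 (upper quartile), 0.06 (median of ratios) and 0.08 (the median of the authors' deposited fold changes). With the last of these scalings, 8 Polycomb genes were higher (Eed, Ezh2, Bap1, Phf19, Mtf2, Suz12, Pcgf6 and Pcgf2) and 4 were lower (Phf1, Ezh1, Cbx7 and Phc3), and median of ratios gave the same 8 and 4. Upper-quartile factors gave 9 higher and 3 lower, and equal totals gave 2 higher and 16 lower. Of all 13448 genes, 3700 were higher and 1806 lower with the authors' scaling, and 3784 and 1908 with median of ratios. With upper-quartile factors 4463 were higher and 1404 lower, and with equal totals 1298 and 5879. Nothing about the members as a group is read from their counts under these scalings. Under all 5 scalings Ezh1, Phf1 and Cbx7 were lower and Eed and Pcgf2 were higher, where 10.4% of all genes were lower and 9.65% higher under all 5. In the authors' deposited table, 9 of the 30 were higher and 4 lower at an adjusted p under 0.05, against 17.1% and 11.5% of 23405 genes. The medians with the authors' scaling were 0.47 for PRC2, -0.10 for PRC1 and 0.20 for PR-DUB, so PRC1 stood below PRC2 there too, while 2 of its 18 genes were lower and 2 higher. Plain FPKM ratios between Polycomb genes of 1 library do not depend on its scaling, and they are given below for that reason. The planned test used ratios of FPKM + 1, whose size does depend on the added value and slightly on scaling, so both log2 changes are given for the pairs that were called. In both forms 5 of 14 pairs were called, and the values of pairs that were not called are from FPKM + 1.

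**Figure D1:**
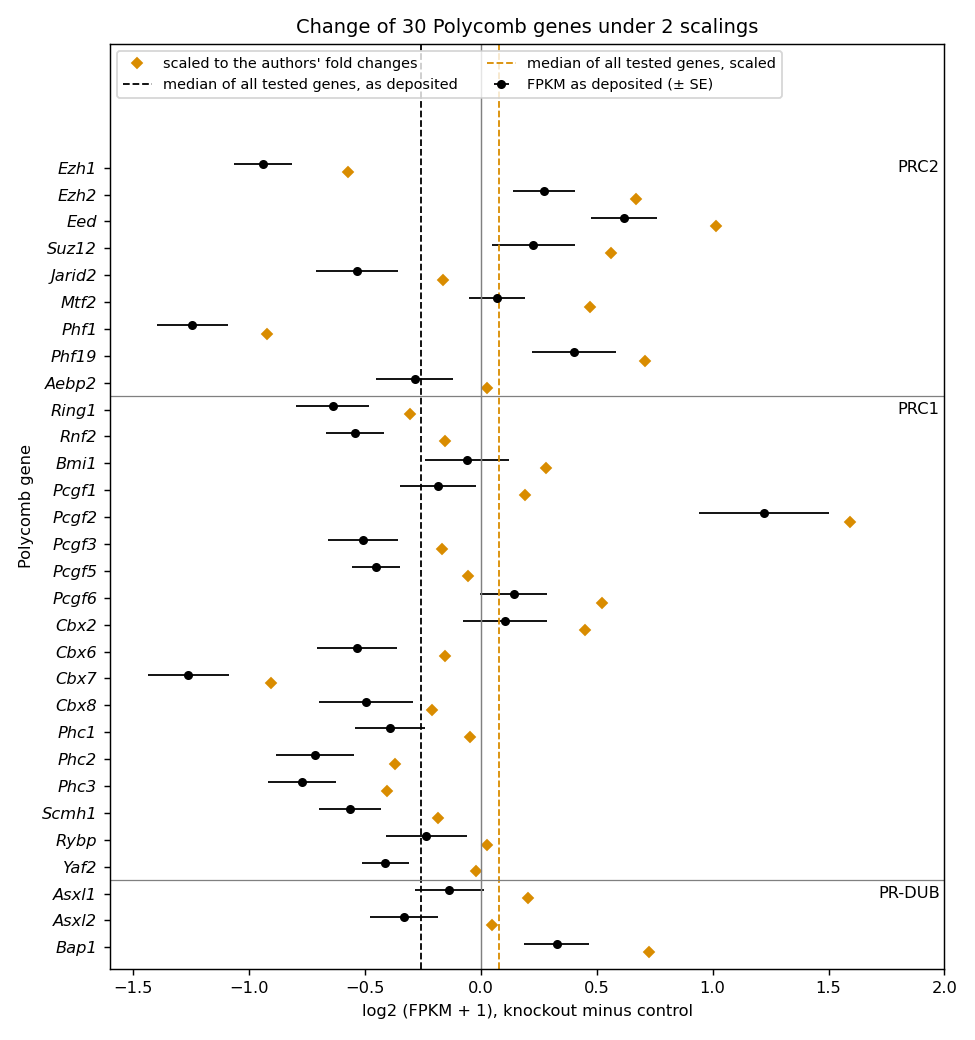
Log2 change (x axis, knockout minus control, log2(FPKM + 1) scale) of the 30 Polycomb genes by complex, with black points and SE bars for FPKM as deposited, orange diamonds after scaling to the authors' fold changes, and dashed lines for the medians of all tested genes (-0.26 and 0.08). Scaling moves every gene to the right. Ezh1, Phf1, Cbx7 and Phc3, which were called lower under both scalings, are among the genes left of both lines. Eed and Pcgf2, which were called higher under both, are among the genes right of both lines.

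The catalytic subunits of PRC2 differed in their change. Ezh1 (chromosome 11, 101191115 to 101226463, mm10) was at 20.07, 15.46, 16.19, 21.92 and 16.96 FPKM in the control libraries WT2 to WT6 and at 8.89, 9.93, 9.66, 7.58 and 8.53 FPKM in the knockout libraries. Every knockout library was below every control library. The mean fell from 18.1 ± 2.76 to 8.92 ± 0.938 FPKM (SD, n = 5 each), a log2 change of -0.94 (SE 0.13, adjusted p = 0.000124 by limma at 1 FPKM). Ezh2 (chromosome 6, 47530139 to 47595341) was at 30.60, 35.01, 39.33, 25.14 and 27.99 FPKM in control and at 37.21, 44.72, 36.28, 31.75 and 40.85 FPKM in knockout libraries. These ranges overlapped, and the change from 31.6 ± 5.64 to 38.2 ± 4.89 FPKM was not called (log2 change 0.27, SE 0.14, adjusted p = 0.104), although it was without WT4 (0.35, adjusted p = 0.0342). In the authors' deposited table Ezh2 had a log2 fold change of 0.83 (adjusted p = 8.35e-15) and Ezh1 of -0.67 (adjusted p = 1.50e-05).

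Within each library the ratio of Ezh2 to Ezh1 was 1.52, 2.26, 2.43, 1.15 and 1.65 in control and 4.19, 4.50, 3.76, 4.19 and 4.79 in knockout. All knockout ratios were above all control ratios, and the mean moved from 1.80 ± 0.53 to 4.28 ± 0.39. On the log2 scale the plain ratio rose by 1.30, and by 1.21 from FPKM + 1 (for each, exact permutation test, two-sided, p = 0.00794, the smallest that 5 against 5 libraries can give, adjusted p = 0.0222 over 14 pairs). Ezh2 made up 63.3 ± 7.08% of the summed FPKM of both genes in control and 81.0 ± 1.41% in knockout libraries.

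**Figure D2:**
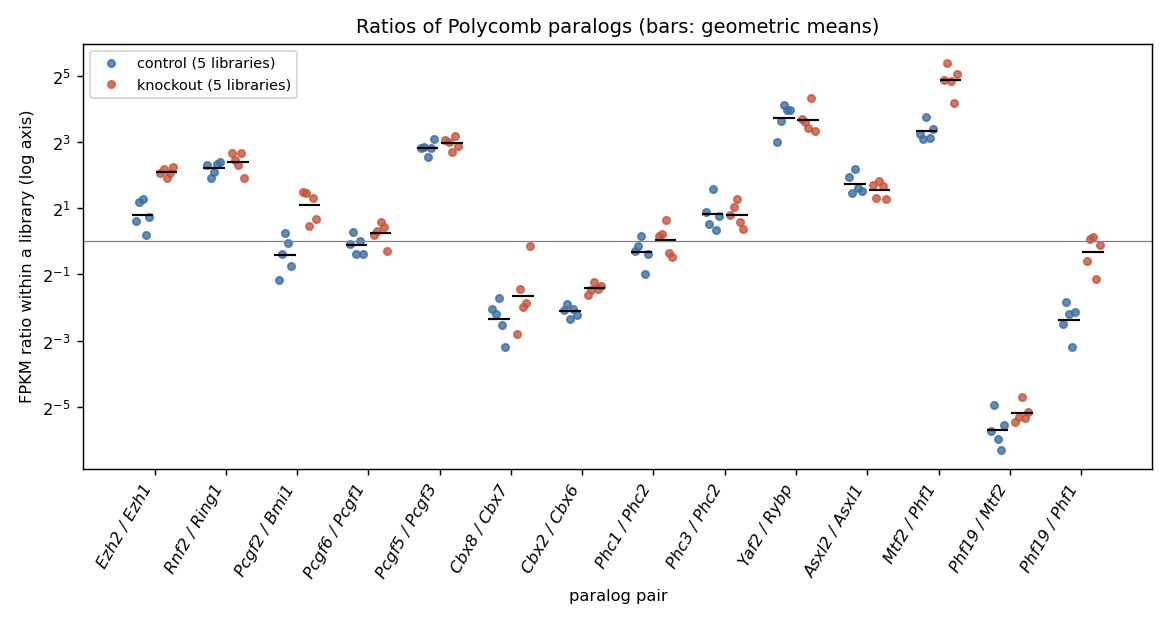
FPKM ratio (y axis, log scale) of the 14 pairs of related Polycomb genes, with 1 point per library for control and knockout and bars for the geometric means. In 5 pairs, Ezh2 over Ezh1 among them, all 5 knockout libraries lie above all 5 control libraries.

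Eed, which binds trimethylated H3 and stimulates the enzyme, was at 33.60, 22.50, 27.19, 27.08 and 23.69 FPKM in control and at 43.39, 48.91, 42.80, 30.29 and 43.58 FPKM in knockout libraries. Only CKO12, the lowest knockout library, lay within the control range. The mean rose from 26.8 ± 4.32 to 41.8 ± 6.89 FPKM (log2 change 0.62, SE 0.14, adjusted p = 0.00204). Suz12, the scaffold subunit, had the lowest level of the 4 core genes, with means of 3.63 ± 0.414 (control) and 4.55 ± 1.35 FPKM (knockout) (0.23, SE 0.18, adjusted p = 0.311 at 1 FPKM). Without CKO12 its change was called (0.39, adjusted p = 0.032).

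Promoters of the PRC2 genes are shown because Ezh2 and Eed are textbook targets of E2F factors and most listed replication genes were higher in the same libraries. Of the E2F genes on that replication list, E2f1 was at 4.29 to 5.58 FPKM in control and 3.58 to 4.86 FPKM in knockout libraries. E2f2 was at 2.8 to 7.26 and 4.33 to 6.82 FPKM, so both overlapped between the groups. RefSeq windows of 300 bases (250 before and 50 after the start, GRCm38.p6) were found for 26 of the 30 genes, as 35 promoters, and searched on both strands for the E2F letters TTTCCCGC, TTTCGCGC, TTTGCCGC and TTTGGCGC. A match was found in 3 of the 35 (8.57%), those of Ezh2, Suz12 and Phf19, and in 2.26% of all 32851 windows. These 3 were chosen for printing after the search, although the plan was to show called members only. Ezh1 is shown as the partner of Ezh2 without a match. Capitals mark the match, and the start site is base 251.
Ezh2, chr6:47594981-47595280, minus strand: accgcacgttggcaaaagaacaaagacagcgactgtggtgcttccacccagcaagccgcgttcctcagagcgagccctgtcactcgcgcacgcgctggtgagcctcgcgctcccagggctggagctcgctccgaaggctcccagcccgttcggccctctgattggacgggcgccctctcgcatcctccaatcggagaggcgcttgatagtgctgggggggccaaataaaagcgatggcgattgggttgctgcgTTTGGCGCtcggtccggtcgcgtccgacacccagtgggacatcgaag
Ezh1, chr11:101226414-101226713, minus strand: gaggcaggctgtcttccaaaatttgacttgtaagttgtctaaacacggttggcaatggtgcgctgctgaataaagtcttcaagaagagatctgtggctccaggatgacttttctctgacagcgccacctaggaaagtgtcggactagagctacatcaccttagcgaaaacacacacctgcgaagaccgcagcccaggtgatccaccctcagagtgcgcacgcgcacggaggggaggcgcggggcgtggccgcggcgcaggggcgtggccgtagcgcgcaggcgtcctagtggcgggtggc
Suz12, chr11:79992856-79993155, plus strand: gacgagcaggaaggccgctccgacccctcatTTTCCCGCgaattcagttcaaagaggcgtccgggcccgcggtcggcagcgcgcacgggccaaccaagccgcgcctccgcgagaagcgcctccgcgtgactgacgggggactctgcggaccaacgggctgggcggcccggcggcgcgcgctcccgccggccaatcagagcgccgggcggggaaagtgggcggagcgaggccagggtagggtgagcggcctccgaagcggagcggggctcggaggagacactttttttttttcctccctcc
Phf19, chr2:34913927-34914226, minus strand: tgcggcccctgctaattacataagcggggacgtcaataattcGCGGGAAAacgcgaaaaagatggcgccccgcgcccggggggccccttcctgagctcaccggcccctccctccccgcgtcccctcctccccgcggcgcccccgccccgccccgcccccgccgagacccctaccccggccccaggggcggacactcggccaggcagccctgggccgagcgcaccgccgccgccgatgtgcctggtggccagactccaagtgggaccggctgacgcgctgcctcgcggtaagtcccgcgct
The match of Ezh2 begins at base 254, just after the start, that of Suz12 at base 32 and that of Phf19, on the other strand, at base 43. Ezh2, Suz12 and Phf19 had log2 changes of 0.27, 0.23 and 0.40, and 0 of the 3 were called on the deposited scale. With upper-quartile, median-of-ratios and the authors' scaling all 3 were called higher. Eed, which was called higher under every scaling, had no match in its window. A link between a match and a change was not tested. The CCAAT box was found in 34.3% of the member promoters and in 37.4% of all windows, with 3 matches in the window of Ezh2. Member windows held a median of 23 CG dinucleotides, against 7 over all windows. A match is a run of letters and not a shown binding site.

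The accessory subunits of PRC2 changed unequally, and Phf1 changed most. Phf1, a Polycomb-like protein (chromosome 17, 26933052 to 26937908), was at 11.61, 9.63, 8.08, 11.07 and 8.24 FPKM in control and at 3.53, 2.74, 3.96, 4.67 and 2.82 FPKM in knockout libraries. The groups did not overlap, and the mean fell from 9.73 ± 1.60 to 3.54 ± 0.808 FPKM (log2 change -1.24, SE 0.15, adjusted p = 7.82e-05 at 1 FPKM). The annotation places 1370 exon bases of Phf1 opposite exons of Cuta, which was at 97.5 ± 23.0 and 103 ± 7.76 FPKM. Since the strand setting is not given in the sources used here, reads of both genes may not have been told apart, and the value of Phf1 is uncertain.

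Mtf2, the highest of the 30 genes in FPKM, was at 109.42, 82.75, 109.05, 95.87 and 87.30 FPKM in control and at 103.29, 113.86, 113.67, 84.81 and 92.78 FPKM in knockout libraries. Its groups overlapped throughout (96.9 ± 12.2 and 102 ± 12.8 FPKM, log2 change 0.07, SE 0.13, adjusted p = 0.665). The authors' mean normalized counts were 1644 for Mtf2 and 2155 for Bap1, with annotated exon lengths of 5698 and 4682 bases. Which of these 2 genes is the more abundant is therefore uncertain. Phf19 was at 2.05, 2.70, 1.75, 1.21 and 1.86 FPKM in control and at 2.35, 2.89, 4.37, 2.11 and 2.61 FPKM in knockout libraries (0.40, SE 0.18, adjusted p = 0.0826 at 1 FPKM). Of the summed FPKM of these 3 Polycomb-like genes, Mtf2 held 89.2% in control and 94.0% in knockout, Phf1 9.01% and 3.35%, and Phf19 1.80% and 2.62%. The ratio of Mtf2 to Phf1 rose from a mean of 10.15 to 30.12 and that of Phf19 to Phf1 from 0.20 to 0.84, both without overlap. The log2 changes of these plain ratios were 1.54 and 2.05, and 1.31 and 1.64 from FPKM + 1 (adjusted p = 0.0222 each by the exact permutation test). The ratio of Phf19 to Mtf2 had a log2 change of 0.33 and was not called (adjusted p = 0.222, exact).

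Other members share fewer exon bases with a gene on the opposite strand: Mtf2 395 with Tmed5 (52.0 FPKM in control, 30.5 in knockout), Eed 261 with E230029C05Rik (1.61 and 0.446 FPKM) and Rnf2 158 with Trmt1l (21.73 and 17.03 FPKM). Jarid2, which helps to recruit PRC2, fell from 14.6 ± 2.88 to 9.74 ± 2.03 FPKM (log2 change -0.53, SE 0.17, adjusted p = 0.0176). Aebp2, a zinc-finger partner, averaged 3.84 in control and 2.998 FPKM in knockout, a difference that missed the threshold (-0.29, adjusted p = 0.171 at 1 FPKM).

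**Figure D3:**
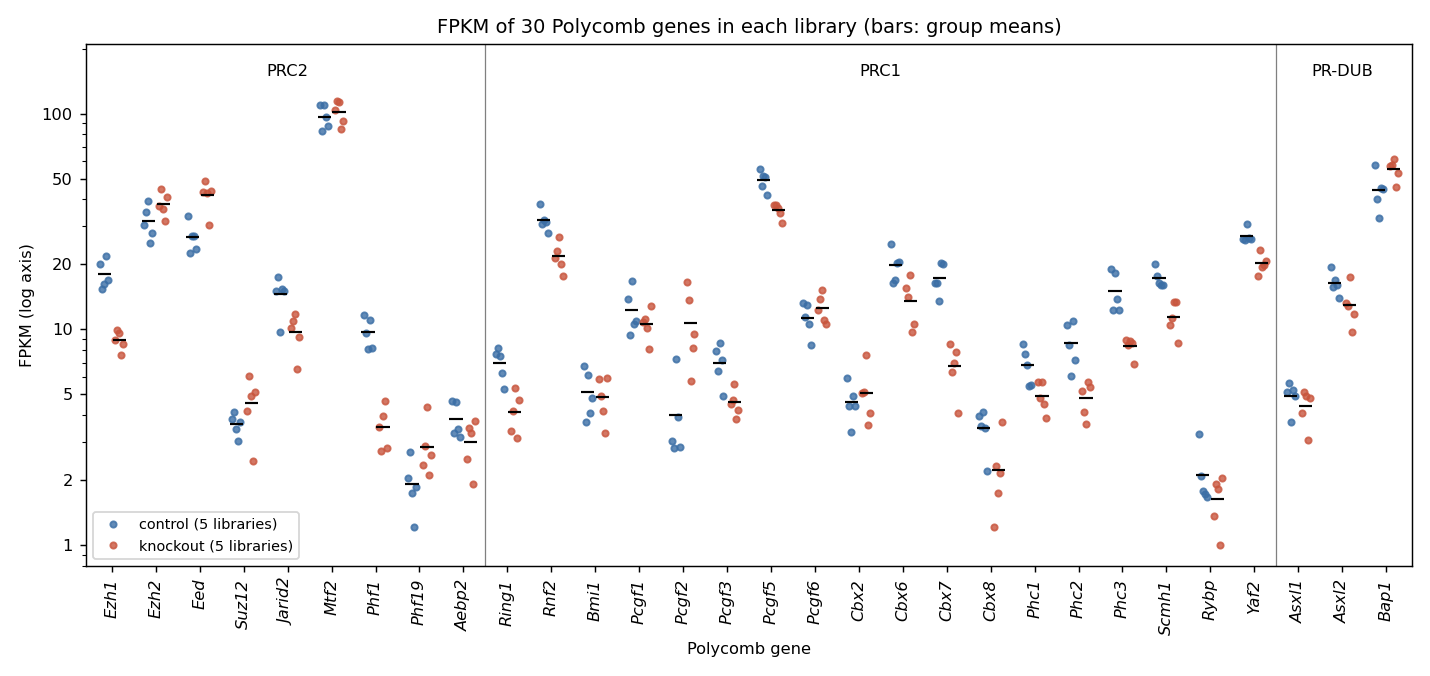
FPKM (y axis, log scale) of each of the 30 Polycomb genes, with 1 point per library for control and knockout side by side and bars for the group means. Control means span from 1.91 FPKM for Phf19 to 96.9 FPKM for Mtf2, and 9 genes have all knockout points below all control points.

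In PRC1, groups failed to overlap for 7 genes (Rnf2, Pcgf5, Cbx7, Phc2, Phc3, Scmh1 and Yaf2), all lower in knockout libraries. With Ezh1 and Phf1 this made 9 of the 30 members lower without overlap and 0 higher, against 25.1% and 7.76% of all genes at 1 FPKM. Both E3 ligases fell on the deposited scale, and kept a negative sign with upper-quartile factors (-0.07 for Rnf2 and -0.23 for Ring1) without being called. Rnf2 was at 38.27, 30.67, 32.22, 31.53 and 27.84 FPKM in control and at 21.48, 22.96, 26.75, 20.04 and 17.68 FPKM in knockout libraries, and CKO9, the highest knockout library, came closest to the control range. The mean fell from 32.1 ± 3.83 to 21.8 ± 3.39 FPKM (log2 change -0.54, SE 0.13, adjusted p = 0.00241). Ring1, the less abundant ligase, fell from 6.99 ± 1.19 to 4.15 ± 0.923 FPKM (-0.64, SE 0.16, adjusted p = 0.00528 at 1 FPKM). Their ratio had a log2 change of 0.09 and was not called (adjusted p = 0.607, exact), with Rnf2 at 82.1% and 84.0% of the sum.

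The PCGF subunits, which define the 6 kinds of PRC1, went different ways. Pcgf2 (MEL18, chromosome 11, 97688823 to 97700497), a subunit of canonical PRC1, was at 3.05, 2.83, 7.28, 3.94 and 2.85 FPKM in control and at 16.62, 13.65, 5.76, 8.17 and 9.56 FPKM in knockout libraries. WT4 was above CKO9, the lowest knockout library, and the other control libraries were below all knockout libraries. The mean rose from 3.99 ± 1.89 to 10.8 ± 4.35 FPKM (log2 change 1.22, SE 0.28, adjusted p = 0.00382 at 1 FPKM). In the authors' deposited table its log2 fold change was 0.92 at a mean normalized count of 44.6.

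Bmi1, the closest relative of Pcgf2, was at 6.80, 3.72, 6.13, 4.10 and 4.8 FPKM in control and at 5.89, 4.93, 4.17, 3.31 and 5.94 FPKM in knockout libraries. The groups overlapped throughout (5.11 ± 1.32 and 4.85 ± 1.13 FPKM, log2 change -0.06, SE 0.18, adjusted p = 0.804 at 1 FPKM). The ratio of Pcgf2 to Bmi1 rose from a mean of 0.79 in control to 2.21 in knockout libraries without overlap (log2 change 1.51 for the plain ratio and 1.28 from FPKM + 1, adjusted p = 0.0222 for each, exact). In FPKM, Bmi1 was thus the higher of the pair in 4 of 5 control libraries and Pcgf2 the higher in 5 of 5 knockout libraries. The authors' mean normalized counts over all libraries were 44.6 for Pcgf2 and 185 for Bmi1, with annotated exon lengths of 3526 and 3974 bases. Their log2 fold changes there were 0.92 and 0.21. Which of the pair is the more abundant, and the size of the rise in their ratio, are therefore uncertain.

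Among the PCGF subunits of variant PRC1, Pcgf5 was the most abundant. It was at 55.42, 46.32, 51.14, 51.07 and 41.74 FPKM in control and at 37.62, 37.75, 36.54, 34.76 and 31.22 FPKM in knockout libraries, so that the highest knockout library was below the lowest control library. The mean fell from 49.1 ± 5.24 to 35.6 ± 2.71 FPKM (log2 change -0.45, SE 0.11, adjusted p = 0.00319), but the change was 0.03 with upper-quartile factors. Pcgf3, its paralog, was at 7.02 and 4.58 FPKM and also fell (-0.51, adjusted p = 0.0142 at 1 FPKM), and their ratio was not called (0.06, adjusted p = 0.607, exact). With upper-quartile factors the change of Pcgf3 was -0.09 and not called. In the authors' deposited table its log2 fold change was 0.16 (adjusted p = 0.535). Pcgf1 (12.3 ± 3.001 and 10.6 ± 1.68 FPKM, adjusted p = 0.36) and Pcgf6 (11.3 and 12.6 FPKM, adjusted p = 0.438) were not called on the deposited scale. Pcgf6 was called higher with upper-quartile, median-of-ratios and the authors' scaling (0.60, 0.50 and 0.52). As a share of the summed FPKM of the 6 PCGF genes, Pcgf5 moved from 55.5 ± 3.52% to 45.2 ± 3.40%, Pcgf2 from 4.40% to 13.4% and Pcgf6 from 12.7% to 16.0%. The share of Pcgf2 rests on its FPKM and is uncertain for the reason given above.

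Of the CBX readers, Cbx7 fell most. Cbx7 (chromosome 15, 79915807 to 79971119) was at 16.43, 16.39, 13.57, 20.36 and 20.13 FPKM in control and at 8.51, 6.36, 6.98, 7.85 and 4.09 FPKM in knockout libraries. All knockout libraries were below all control libraries, and CKO13 was the lowest. The mean fell from 17.4 ± 2.87 to 6.76 ± 1.70 FPKM (log2 change -1.26, SE 0.17, adjusted p = 0.000156 at 1 FPKM). It shares 100 exon bases with Apobec3 on the opposite strand.

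Cbx6 was at 24.94, 16.35, 16.96, 20.28 and 20.49 FPKM in control and at 15.49, 14.16, 17.79, 9.69 and 10.56 FPKM in knockout libraries, and CKO9 lay within the control range (19.8 ± 3.43 to 13.5 ± 3.39 FPKM, log2 change -0.53, SE 0.17, adjusted p = 0.0151). Cbx2 was at 5.95, 4.40, 3.35, 4.92 and 4.40 FPKM in control and at 5.06, 5.12, 7.57, 3.6 and 4.11 FPKM in knockout libraries, with groups that overlapped (0.10, adjusted p = 0.652 at 1 FPKM). In the authors' deposited table the log2 fold change of Cbx2 was 0.56 (adjusted p = 0.0314). The ratio of Cbx2 to Cbx6 rose from a mean of 0.23 to 0.37 without overlap (log2 change 0.69 for the plain ratio and 0.64 from FPKM + 1, adjusted p = 0.0222 for each, exact). Cbx8 was at 3.48 and 2.23 FPKM (-0.50, adjusted p = 0.0569 at 1 FPKM), and its ratio to Cbx7 was not called (0.76, adjusted p = 0.167, exact). Of the summed FPKM of the 4 genes, Cbx7 held 38.4 ± 4.43% in control and 24.6 ± 6.25% in knockout, Cbx6 43.6% and 48.5%, Cbx2 10.1 ± 1.12% and 18.2 ± 2.54%, and Cbx8 7.84% and 8.66%.

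**Figure D4:**
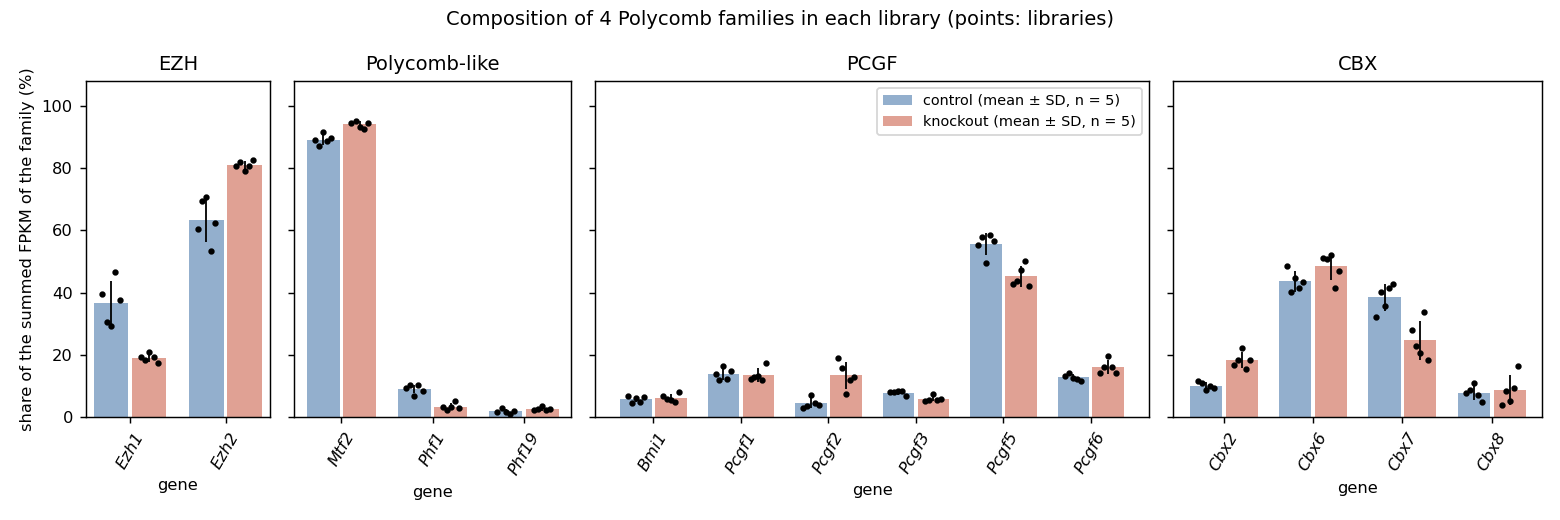
Share (y axis, percent) of each gene in the summed FPKM of the EZH, Polycomb-like, PCGF and CBX families, with bars for the mean and SD of 5 control or 5 knockout libraries and points for the libraries. Ezh2 rises from 63.3% to 81.0% of its pair, Pcgf2 from 4.40% to 13.4% and Cbx2 from 10.1% to 18.2%, while Cbx7 goes from 38.4% to 24.6%.

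The 3 polyhomeotic genes and Scmh1, whose proteins carry SAM domains, all fell on the deposited scale. With upper-quartile factors none was called and Phc1 turned to 0.03. Phc3 was at 19.09, 12.24, 18.24, 13.84 and 12.27 FPKM in control and at 8.90, 8.43, 8.79, 8.62 and 6.92 FPKM in knockout libraries (15.1 ± 3.30 to 8.33 ± 0.809 FPKM, log2 change -0.77, SE 0.15, adjusted p = 0.00103 at 1 FPKM). Scmh1 was at 20.13, 17.76, 16.39, 16.04 and 15.97 FPKM in control and at 10.44, 11.33, 13.44, 13.43 and 8.63 FPKM in knockout libraries (-0.56, SE 0.14, adjusted p = 0.00323). In both genes the knockout libraries were all below the control libraries. Phc2 was at 10.44, 8.46, 6.09, 10.93 and 7.22 FPKM in control and at 5.16, 4.14, 3.66, 5.70 and 5.40 FPKM in knockout libraries, also without overlap (-0.71, SE 0.17, adjusted p = 0.00406 at 1 FPKM). Phc1, at 6.82 and 4.93 FPKM, was the weakest call (-0.39, adjusted p = 0.0452 at 1 FPKM). It was lost without WT2, WT3, WT4, CKO8, CKO12 or CKO13 (adjusted p = 0.107, 0.0978, 0.0693, 0.0792, 0.0764 and 0.106). The ratios of Phc1 to Phc2 (0.32, adjusted p = 0.344) and of Phc3 to Phc2 (-0.06, adjusted p = 0.865) were not called by the exact test.

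Of the subunits that mark variant PRC1, Yaf2 was at 26.33, 25.97, 30.80, 26.64 and 26.13 FPKM in control and at 17.73, 23.22, 19.47, 19.93 and 20.69 FPKM in knockout libraries. The knockout libraries were all lower (27.2 ± 2.04 to 20.2 ± 2.004 FPKM, log2 change -0.41, SE 0.11, adjusted p = 0.00589), and the change was 0.06 with upper-quartile factors. Rybp, its paralog, stood at 2.11 and 1.63 FPKM, without a call (adjusted p = 0.282 at 1 FPKM), nor was the ratio of Yaf2 to Rybp (-0.18, adjusted p = 0.444, exact).

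In PR-DUB, the catalytic subunit Bap1 averaged 44.2 ± 9.05 FPKM over the control libraries and 55.05 ± 5.94 FPKM over the knockout libraries, which missed the threshold (log2 change 0.33, adjusted p = 0.0604). It was called without WT2 (0.43, adjusted p = 0.0145) and without CKO12 (0.39, adjusted p = 0.0352). Bap1 was also called higher with upper-quartile, median-of-ratios and the authors' scaling (0.81, 0.71 and 0.73). In the authors' deposited table its log2 fold change was 0.77 (adjusted p = 5.42e-08). The partners of Bap1, Asxl1 (4.92 and 4.41 FPKM, -0.14, adjusted p = 0.468 at 1 FPKM) and Asxl2 (16.4 and 13.0 FPKM, -0.33, adjusted p = 0.0749), were not called, and neither was their ratio (adjusted p = 0.344, exact).

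Summed over its genes, PRC2 came to 207 ± 17.9 FPKM in the control libraries and 214 ± 27.1 FPKM in the knockout libraries, while PRC1 came to 250.4 ± 24.4 and 184 ± 14.8 FPKM. The ratio of the PRC1 sum to the PRC2 sum lay between 1.18 and 1.24 in the control libraries and between 0.797 and 0.981 in the knockout libraries, with means of 1.21 ± 0.0214 and 0.864 ± 0.0762. No knockout library reached the control range. Mtf2 makes up much of the PRC2 sum, and without it the ratio was 2.27 in control (2.12 to 2.37) and 1.65 in knockout (1.43 to 1.93), again without overlap. Against the 4 core PRC2 genes alone, the PRC1 sum stood at 3.12 in control and 1.99 in knockout. These ratios do not depend on library scaling and are given as a description without a test. PR-DUB summed to 65.5 and 72.5 FPKM.

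**Figure D5:**
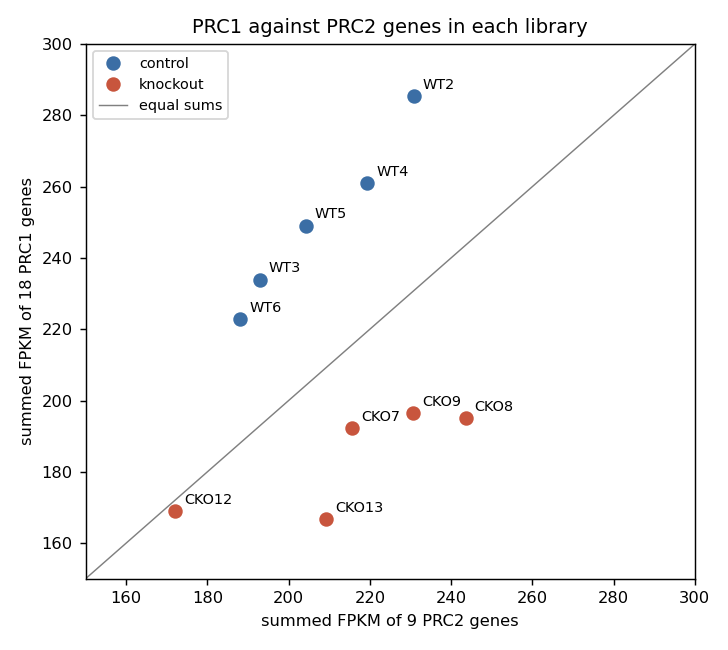
Summed FPKM of the 18 PRC1 genes (y axis) against that of the 9 PRC2 genes (x axis), with 1 labelled point per library and a grey line where both sums are equal. The 5 control libraries lie above the line, at ratios of 1.18 to 1.24, and the 5 knockout libraries below it, at 0.797 to 0.981.

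Partners outside the 30 genes were read from a list of 44, of which 41 were tested at 1 FPKM. There 10 rose and 14 fell, with a median of -0.09, where 13.4% of all genes were higher and 36.4% lower. The balance turned with the scaling: 19 were higher and 4 lower with upper-quartile factors, 17 and 5 with median of ratios, 15 and 5 with the authors' scaling, and 6 and 15 with equal totals. In that order, 4463 and 1404, 3784 and 1908, 3700 and 1806, and 1298 and 5879 of all 13448 genes were higher and lower. Among those that rose, Rbbp7, a histone chaperone that belongs to PRC2 and to several other complexes, went from 141 ± 13.7 to 269 ± 33.2 FPKM (log2 change 0.92, adjusted p = 3.33e-05). Cbx3, which encodes heterochromatin protein HP1 gamma and occurs with PRC1.6, went from 84.6 to 141 FPKM (0.79), and the elongins Eloc and Elob from 54.99 to 89.7 and from 209 to 305 FPKM. Csnk2b, the regulatory subunit of casein kinase 2 found in PRC1.3 and PRC1.5, went from 115 to 174 FPKM (0.61).

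Among the partners that fell, Ogt, the O-GlcNAc transferase that works with PR-DUB, went from 128 ± 30.05 to 57.9 ± 9.99 FPKM (log2 change -1.11, adjusted p = 5.33e-05), and Max, a DNA-binding partner in PRC1.6, from 27.2 to 12.1 FPKM (-1.08, adjusted p = 0.00178). Scml4, Kdm1b and Mbd5 each had a change of -0.81 at 1 FPKM. Under all 5 scalings Rbbp7, Cbx3, Eloc, Elob and Csnk2b were higher and Ogt, Max, Kdm1b and Mbd5 lower, while the call of Scml4 varied. Of the H3K27 demethylases, which oppose PRC2, Kdm6b fell from 11.5 to 7.12 FPKM (-0.66, adjusted p = 0.0118 at 1 FPKM), whereas Kdm6a, at 11.4 and 8.07 FPKM, missed the threshold (-0.48, adjusted p = 0.0524).

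Known Polycomb targets were read from a list of 50 genes, 49 of them in the file. Of these, 34 were too low to test, 24 of them under 1 FPKM in every library. Among the 15 tested at 1 FPKM, 11 fell and 0 rose (limma, 12 at an unadjusted p under 0.05), with a median of -0.75, where 36.4% of all genes were lower. With upper-quartile factors 5 of the 15 were lower, with median of ratios or the authors' scaling 8, and with equal totals 12, and 0 were higher under these scalings. Of all 13448 genes, 1404 were lower with upper-quartile factors, 1908 with median of ratios, 1806 with the authors' scaling and 5879 with equal totals. On the deposited scale 6 of the 8 tested Hox genes fell. Cdkn1c (p57), an imprinted cell cycle inhibitor of resting stem cells, went from 11.2 ± 1.96 to 4.02 ± 1.56 FPKM (log2 change -1.34, adjusted p = 0.000858 at 1 FPKM). Id2, an inhibitor of bHLH factors, fell from 17.7 to 7.01 FPKM (-1.22), Igf2bp2 from 5.33 to 2.13 FPKM (-1.04), Hoxa7 from 14.4 to 7.10 FPKM (-0.96) and Hoxb5 from 3.6 to 1.60 FPKM. These 5 were lower under all 5 scalings. For Id2 and Hoxa7 these calls are from the fit at 10 FPKM, a filter that they passed only through the control libraries. Hoxa9, a stem and progenitor homeobox gene, fell from 43.8 ± 4.11 to 32.9 ± 4.08 FPKM (-0.41, adjusted p = 0.00897) on the deposited scale, but its log2 fold change in the authors' deposited table was 0.08. Cdkn2a, the cell cycle inhibitor locus known as a target of Bmi1 and Ezh2, was at 0.09 FPKM in 1 control library and is listed at 0 in the other 9 libraries.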

How the data were processed

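Per the submitters' processing notes the authors used Bowtie 0.12.9, Cufflinks 2.1.1, HTSeq and mm10. The role of each tool and the strandedness of counting are not given in the sources used here. The deposited library columns were taken as FPKM, a unit inferred from their values and not named in the header, and read depth is unknown (column sums 770789 to 966648 FPKM). The authors' deposited table also held a mean normalized count per gene (a signal), log2 fold changes with standard errors, a test statistic (a score) and p-values. Column numbers differ from those in the titles, and columns were therefore matched to groups only.

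The plan named a count model, or limma for normalized values. The second fitted the files, and limma 3.58.1 (R 4.3.3, trend and robust options) was run on log2(FPKM + 1), with Benjamini-Hochberg adjustment over all genes tested. The fit was tested on simulated data. Pairs of genes were compared by exact permutation over libraries (scipy 1.17.1), with adjustment over 14 pairs. Gene coordinates and overlaps are from GENCODE M21, on the mm10 assembly, and promoters from RefSeq. The members and lists were chosen with earlier results of these data known. All 30 members are described; values per library were given for called members whose groups did not overlap, for both genes of each changed pair, and for Ezh1, Ezh2, Bmi1 and Cbx7, and for Eed, added after its values were seen. Of partners and targets, the 5 largest called changes in each direction were named, with Kdm6a, Kdm6b, Cdkn1c, Cdkn2a and Hoxa9. Alternatives were other filters, pseudocounts, scalings and variance models, and leaving out libraries; a 1 FPKM filter combined with each of them was added after the data were seen.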

Additional observations from a re-analysis of the deposited data

Results flagged for a closer look

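In 4 of 88 groups of 5 libraries checked, the highest or lowest library stood apart from the other 4 by Dixon's 95% criterion, and chance alone marks about 1 group in 20. Pcgf2 in WT4 was at 7.28 FPKM, where the next control library was at 3.94 FPKM. Phc3 in CKO13 was at 6.92 FPKM, below the next knockout library at 8.43 FPKM. Rybp in WT2 was at 3.27 FPKM, with the next control library at 2.09 FPKM. Yaf2 in WT4 was at 30.8 FPKM, with the next at 26.64 FPKM.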

How the results depend on the processing

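The counts of called members depended on the scaling and the filter, as did those over all genes. Of all 6913 genes at 10 FPKM, 1460 were higher and 2182 lower as deposited. With upper-quartile factors these counts were 3560 and 582, and with the authors' scaling 3039 and 780. At 10 FPKM the 1 member called higher became 2 with a filter of 1 FPKM or none, 3 with library quality weights and 5 with each of upper-quartile, median-of-ratios and the authors' scaling, and was 1 to 2 when a library was left out. The 9 called lower became 14 at 1 FPKM, 3 at 20 FPKM, 2 with upper-quartile factors and 3 with median-of-ratios or the authors' scaling, and 9 to 10 without a library. The 10 partners called higher became 6 with equal totals, 18 with upper-quartile and 16 with median-of-ratios factors, and the 3 called lower became 14 at 1 FPKM, 10 with no filter and 1 at 20 FPKM. The 6 targets called lower became 11 at 1 FPKM or with no filter, and 2 at 20 FPKM or with upper-quartile factors. Of these targets, Hoxa7, Hoxa10, Gata3 and Id2 passed 10 FPKM only through the control libraries, so nothing is read from the count of 6.

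Of the members that changed sign, Pcgf5, Phc1 and Yaf2 were called on the deposited scale, and 0 were called with the opposite sign. With upper-quartile, median-of-ratios and the authors' scaling in that order, Aebp2 went to 0.0911, 0.0090 and 0.0259, Bmi1 to 0.35, 0.26 and 0.28, Pcgf1 to 0.27, 0.17 and 0.19, Rybp to 0.0781, 0.0099 and 0.0263, Asxl1 to 0.27, 0.18 and 0.20 and Asxl2 to 0.13, 0.0309 and 0.0492. Upper-quartile factors turned Pcgf5 (0.0313), Phc1 (0.029) and Yaf2 (0.0622), and equal totals turned Mtf2 (-0.0735) and Cbx2 (-0.0168). Mtf2 was also at -0.0278 without the 2 libraries highest in granulocyte score, Bmi1 at 0.0813 with quality weights and between -0.15 and 0.0449 without a library, and Cbx2 at -0.028 without CKO9. The cause was not tested.

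Of the ratios, 5 of 14 changed in every leave-out of a library, 8 with a pseudocount of 10, and 0 after removing the library of each group with the top bone matrix score, or 0 after removing that with the top granulocyte score, where 4 against 4 libraries cannot reach the threshold. Rnf2 over Ring1 and Pcgf5 over Pcgf3 went to -0.14 and -0.15 with a pseudocount of 10, the latter called (exact permutation test, adjusted p = 0.0278), and Phc3 over Phc2 to 0.0251 without the bone-high libraries and between -0.17 and 0.12 without a library. No paired analysis was possible because the library numbers of the 2 groups are not shared and do not match the sample titles. Depth is unknown, so no limit of detection is given.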

Other observations

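The authors' deposited log2 fold changes lay above the log2 ratio of the mean FPKM by a median of 0.406 over genes. Pcgf2 was an exception among the members, with a difference of -0.51, and Pcgf3 had the largest positive difference, 0.78. Among the control libraries, WT2 was the highest in 16 of the 30 Polycomb genes and the lowest in 0, and WT6 was the lowest in 10. Among the knockout libraries, CKO12 was the lowest in 18 and CKO9 the highest in 11.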
